A study of Mus musculus with 6 samples.

Results

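The genes described here encode the subunits of the oxidative phosphorylation machinery, as transcribed in D4M-3A mouse melanoma cells. They were taken by name: the Nduf, Sdh, Uqcr, Cox and Atp5 subunit genes of the nucleus and the protein-coding genes of the mitochondrial genome, which carry the prefix mt-. Of the 43043 genes listed in every sample, 101 had such a name, and 91 of these had at least 10 reads in every sample and are the members, of which 78 are nuclear and 13 mitochondrial. All 91 members also passed the filter on low counts for the test, which kept 14419 genes in all. The names taken do not cover every subunit gene: Cyc1 and Ndufab1 are counted below in the list of electron carriers. D4M-3A is an established mouse melanoma cell line. The control cells (Ctrl, 3 samples) had received an empty lentiviral control, and the Nfkbiz knockout cells (Nfkbiz KO, 3 samples) a lentiviral CRISPR-Cas9 construct against Nfkbiz, the gene of the transcriptional co-regulator IκBζ. Both populations were untreated apart from transduction and selection in puromycin. The sources used here do not state whether the knockout cells were a pool or a clone.

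Oxidative phosphorylation takes place in the inner mitochondrial membrane. Complex I accepts electrons from NADH and complex II from succinate, and both pass them through coenzyme Q to complex III, from which cytochrome c carries them to complex IV, where oxygen is reduced. Complexes I, III and IV pump protons, and the ATP synthase, complex V, uses the gradient to make ATP. Complex II is built from nuclear gene products alone, whereas the other complexes combine nuclear subunits with subunits translated inside the mitochondrion. The mitochondrial mRNAs are cut from long transcripts of both strands of a small circular genome. A separate mitochondrial RNA polymerase makes these long transcripts.

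Libraries held between 32219900 and 44927203 gene reads. Nfkbiz mRNA was at 69.1, 75.2 and 63.4 TPM (a transcript level scaled for transcript length and for depth) in the Ctrl samples and at 34.8, 34.7 and 35.1 TPM in the Nfkbiz KO samples. Its log2 fold change was -0.98 (SE 0.056, adjusted p = 6e-08). The transcript was thus lower in the samples labelled Nfkbiz KO and still present; a CRISPR-Cas9 edit need not remove the RNA. Of 11 melanocyte and neural crest markers, 10 stayed under 1 TPM in every sample and 3 had no read at all, among them Sox10 and Tyr. Their summed level was between 1.36 and 1.80 TPM in Ctrl and between 1.40 and 2.01 TPM in Nfkbiz KO samples, so the melanocytic origin of the line was not visible in these markers. Of 10 markers of blood, endothelial, epithelial and liver cells, 9 stayed under 1 TPM, 3 had no read, and the sum ran from 0.561 to 0.851 TPM in Ctrl and from 1.40 to 1.91 TPM in Nfkbiz KO. Of that list, Cdh5 had 0.40 to 0.67 TPM in Ctrl and 1.21 to 1.83 TPM in Nfkbiz KO, and its part in the results below was not tested. The Ctrl samples were more spread than the Nfkbiz KO samples: over all genes tested the median SD of log2 CPM (read counts scaled to the same library size) was 0.121 in Ctrl and 0.0693 in Nfkbiz KO, and over the nuclear members it was 0.153 and 0.0421.

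The promoters of the nuclear genes that changed most give a view of how such genes are built. Each is shown from 250 bases before to 30 bases after the start of transcription, from RefSeq on build GRCm38.p6, for the member with the lowest log2 fold change among those called in complex I (Ndufv3), complex III (Uqcrh), complex IV (Ndufa4) and complex V (Atp5k). Capitals mark matches to motifs that are bound by regulators of respiratory genes: GCGCATGCG for NRF1, CCGGAAG for ETS factors such as GABPA, AAGATGGCG for YY1 and TGACGTCA for CREB, each sought on both strands.
Ndufv3, chr17:31519865-31520144, plus strand: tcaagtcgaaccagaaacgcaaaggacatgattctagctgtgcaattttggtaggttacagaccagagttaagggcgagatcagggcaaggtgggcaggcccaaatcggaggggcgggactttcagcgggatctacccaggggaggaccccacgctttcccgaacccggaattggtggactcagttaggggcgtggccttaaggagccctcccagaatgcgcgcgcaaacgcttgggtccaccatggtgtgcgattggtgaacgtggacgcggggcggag
Uqcrh, chr4:116075041-116075320, minus strand: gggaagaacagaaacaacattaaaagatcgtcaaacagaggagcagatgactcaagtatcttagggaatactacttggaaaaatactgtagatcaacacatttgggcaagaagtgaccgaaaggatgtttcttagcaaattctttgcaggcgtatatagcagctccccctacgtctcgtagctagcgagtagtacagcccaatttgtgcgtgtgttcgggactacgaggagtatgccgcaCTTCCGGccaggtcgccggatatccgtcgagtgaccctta
Ndufa4, chr6:11907421-11907700, minus strand: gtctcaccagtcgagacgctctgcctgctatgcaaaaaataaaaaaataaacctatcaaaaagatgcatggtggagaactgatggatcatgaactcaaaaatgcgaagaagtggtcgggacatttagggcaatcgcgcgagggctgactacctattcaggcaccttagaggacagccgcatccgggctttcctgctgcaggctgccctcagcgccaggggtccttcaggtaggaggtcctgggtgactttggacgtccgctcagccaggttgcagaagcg
Atp5k, chr5:108434370-108434649, minus strand: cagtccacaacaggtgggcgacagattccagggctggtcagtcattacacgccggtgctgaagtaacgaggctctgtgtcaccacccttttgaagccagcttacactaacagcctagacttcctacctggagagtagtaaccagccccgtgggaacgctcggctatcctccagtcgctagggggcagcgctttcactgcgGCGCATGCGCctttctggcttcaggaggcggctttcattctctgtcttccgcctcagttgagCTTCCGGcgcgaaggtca
The Atp5k window held the NRF1 motif on both strands at overlapping positions from -50 to -41 and an ETS motif at 12 to 18 after the start, and the Uqcrh window held an ETS motif from -10 to -4, where positions are counted from the start of transcription. None of the listed letters was found in the windows of Ndufv3 and Ndufa4. A promoter was on hand for 65 of the 78 nuclear members, taken to 50 bases after the start. The NRF1 motif was held by 8 of them (12.3%) against 3.94% of the 10698 tested genes with a promoter, the ETS motif by 17 (26.2%) against 19.6%, the YY1 motif by 7 (10.8%) against 3.42% and the CREB motif by 4 (6.15%) against 3.45%. At least 1 of the 4 was held by 30 members (46.2%) against 27.4% of tested genes. Of the members that were lower in Nfkbiz KO cells, 16 of 35 (45.7%) held 1 or more, and of those that were not called, 14 of 30 (46.7%).

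Transcript levels of the members covered a wide range. On the TPM scale, averaged over all 6 samples, the nuclear members ran from 1.81 for Cox7a1 to 1238 for Cox8a, with a median of 146.8. The mitochondrial members ran from 197.9 for mt-Atp8 to 14720 for mt-Co2, with a median of 3606. The mt-Atp8 level is uncertain. Its TPM divided by its reads per kilobase of gene length was 0.0035, against 0.030 for mt-Nd4l and 0.073 for mt-Atp6. Complex I had the lowest median level of the nuclear sets, 108.8 TPM over 36 genes, from 14.8 for Ndufb2 to 362.4 for Ndufa2, both accessory subunits. The 4 genes of complex II lay between 86.7 TPM (Sdhc, a membrane anchor) and 258.5 TPM (Sdhd, the other anchor). In complex III the range was narrow, from 134.9 TPM for the core protein gene Uqcrc1 to 297.6 TPM for Uqcr10. In complex V the catalytic β subunit gene Atp5b stood highest at 953.6 TPM and Atp5g1, which encodes the c subunit of the rotor ring, lowest at 57.5 TPM. Tissue-type paralogues of complex IV were scarce in these cells. Cox7a1, the heart and skeletal muscle form, had 1.25 to 2.55 TPM, whereas the widely expressed Cox7a2 was at 278.5 TPM and Cox7a2l, which takes part in building supercomplexes, at 251.4 TPM. Cox4i1 (503.9 TPM), Cox6a1 (702.7 TPM), Cox6b1 (502.2 TPM) and Cox8a made up the rest of the widely expressed forms. Of the 3 genes for the c subunit, Atp5g2 (353.9 TPM) and Atp5g3 (301.4 TPM) were above Atp5g1. In Ctrl replicate 1 they had 6145 and 7337 reads against 2934 for Atp5g1, with canonical transcripts of 731, 988 and 612 bases. The transcript lengths behind the deposited TPM are not stated in the sources used here. The size of gaps between genes in TPM and the order of genes, including the lowest place of Atp5g1, are therefore uncertain.

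**Figure D1:**
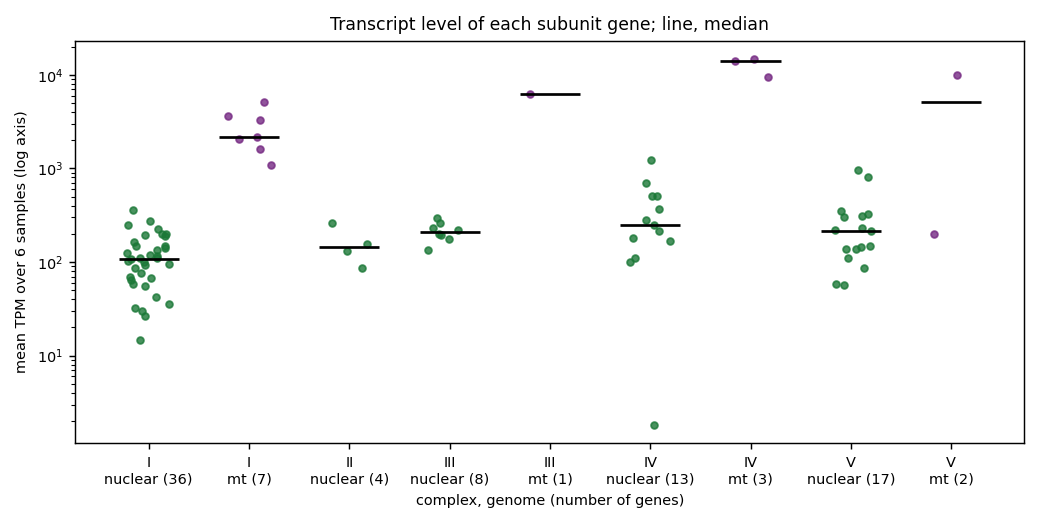
Mean TPM over the 6 samples (log axis) of each of the 91 subunit genes, by complex and genome; each point is a gene and each line the median of its set. The mitochondrial genes have a median of 3606 TPM and the nuclear genes of 146.8 TPM, with Cox7a1 (1.81 TPM) far below the rest. The point of mt-Atp8 (197.9 TPM) lies among the nuclear levels, and its TPM is uncertain.

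The remaining 10 names had too few reads and are not members. Cox7b2, Cox8c and Ndufb11b had no read in any sample, Cox6b2 and Cox5b-ps had 1 read in all, and Cox8b had 0 to 8. The stress-related paralogue Ndufa4l2 had 2 to 9 reads, Atp5o_1 had 8 to 23, and Cox4i2, the paralogue linked to low oxygen, had 7 to 25. Cox6a2, the muscle form of Cox6a1, had 3, 0 and 3 reads in the Ctrl samples and 12, 33 and 14 in the Nfkbiz KO samples. It passed the test as higher in Nfkbiz KO (adjusted p = 0.0035) and was the only matching gene to do so, at no more than 4.37 TPM in any sample and under the read threshold for members.

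In Nfkbiz KO cells the subunit genes were lower as a set, by small amounts. Of the 91 members, 45 were lower at an adjusted p of 0.05 or less by edgeR's quasi-likelihood test over all genes, and 0 were higher. Among all 14419 genes tested, 18.4% were lower and 18.2% higher by the same rule. The nuclear members had 39 of 78 lower, with a median log2 fold change of -0.20 and a range from -0.70 to 0.18, and the mitochondrial members had 6 of 13 lower, with a median of -0.23 and a range from -0.48 to 0.07. The median over all genes was -0.015. Of the 78 nuclear members, 70 had a negative log2 fold change whether called or not, as did 12 of the 13 mitochondrial ones. No member changed by more than 2-fold, so 0 members met the fold, p-value and difference thresholds used in the study, which 1.79% of all genes met. At an unadjusted p under 0.05, 54 members were lower and 1 (Uqcrc2) higher, and DESeq2 called 41 lower and 1 higher. The groups did not overlap in 46 members in the lower direction and in 0 in the higher, against 24.5% and 23.9% of all genes tested. That count was made on CPM. On the deposited TPM scale the groups were apart in the lower direction in 25 nuclear and 3 mitochondrial members and in the higher direction in 5 nuclear members, against 14.9% and 32.9% of all genes tested.

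**Figure D2:**
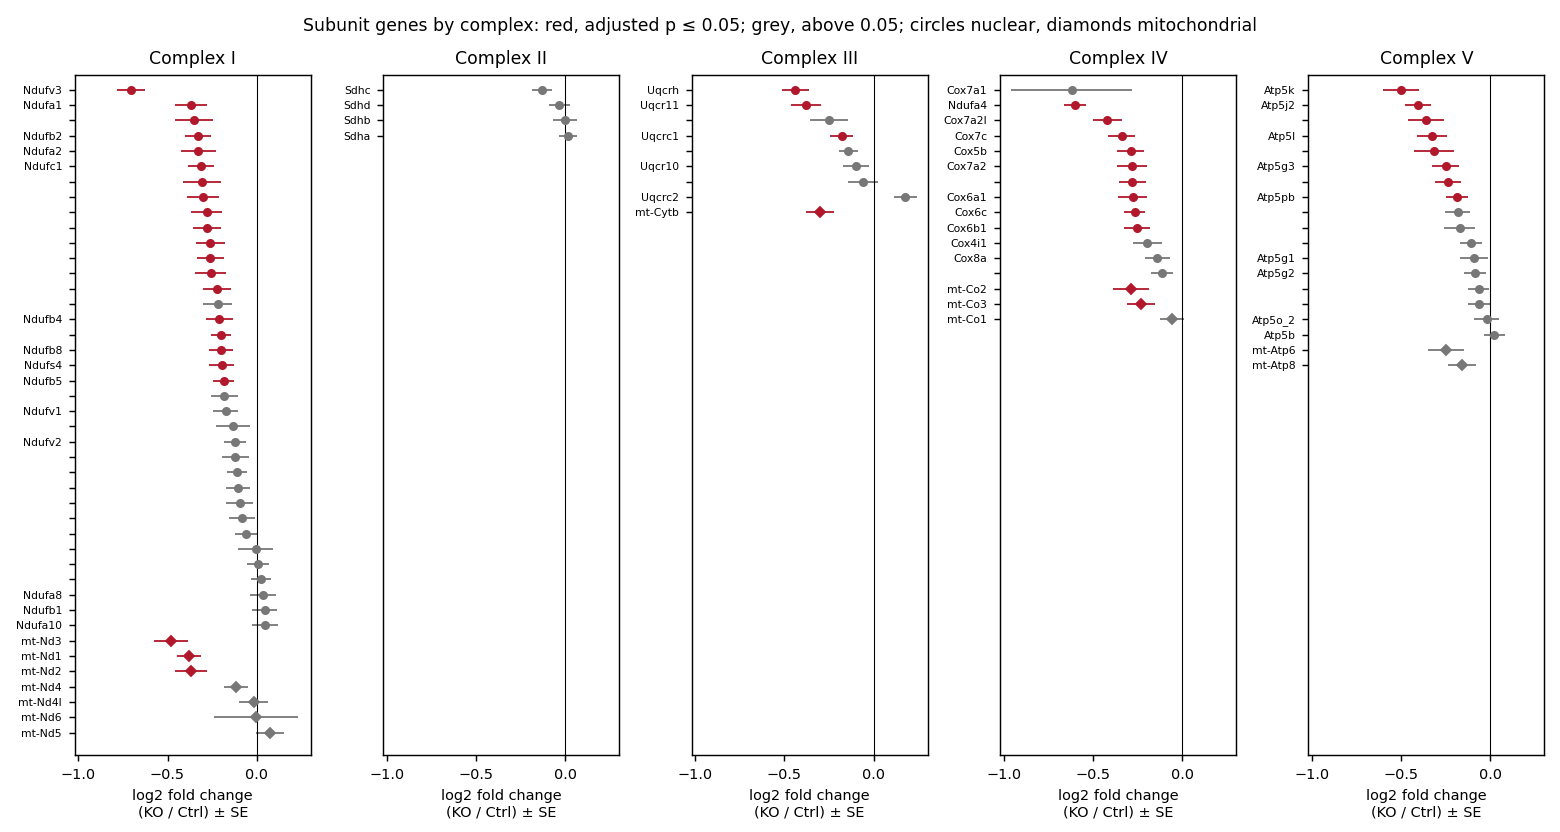
Log2 fold change (Nfkbiz KO over Ctrl) with its SE for each of the 91 members, in a panel per complex; circles are nuclear and diamonds mitochondrial genes, red marks an adjusted p of 0.05 or less, and the members named in the text carry their names. All red points lie left of 0, from -0.70 (Ndufv3) to -0.18 (Uqcrc1), and complex II has none.

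How many members passed depended on which samples and which scale were used. Ctrl replicate 3 had the highest level of the 6 samples in 71 of the 78 nuclear members and in 10 of the 13 mitochondrial ones, against 3455 of the 14419 genes tested. Without it, 30 nuclear members were lower and 2 (Uqcrc2 and Ndufa10) higher, with a median of -0.13. Without Ctrl replicate 3, 17.9% of all genes were lower. Leaving out Nfkbiz KO replicate 1, 2 or 3 reduced the nuclear count to 14, 21 and 18, and the share of all genes that were lower to 12.4%, 13.1% and 12.5%. Leaving out Nfkbiz KO replicate 1 reduced the mitochondrial count to 2. The members lower in the full set and in each of these 6 reduced sets numbered 15: Ndufv3, Ndufa1, Ndufb2 and Ndufc1 of complex I, Uqcrh and Uqcr11 of complex III, Ndufa4, Cox6c, Cox7c and Cox7a2l of complex IV, Atp5k, Atp5j2 and Atp5l of complex V, and mt-Nd1 and mt-Nd3. Of these, 10 were also lower in every other alternative run, namely Ndufv3, Ndufb2, Ndufc1, Uqcrh, Uqcr11, Ndufa4, Cox7a2l, Atp5j2, mt-Nd1 and mt-Nd3, and each other member called lower lost its call in at least 1. With limma on log2(TPM + 1) in place of read counts, 13 nuclear members were lower and 2 (Uqcrc2 and Atp5b) higher, and 2 mitochondrial members were lower. On that scale 1327 of all genes (9.2%) were lower and 3004 higher, against 2647 and 2627 by read counts, and the median over all genes was 0.063.

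Transcript length moved with these differences. Over all genes, those with longer transcripts had higher log2 fold changes, except at the short end. The median was -0.165 over 168 genes of up to 500 bases and -0.20 over 385 genes of 501 to 750 bases. From there it rose to -0.11 over 1155 genes of 1001 to 1500 bases and 0.073 over 3384 genes above 5000 bases. Most subunit transcripts are short. The 39 nuclear members that were lower had a median length of 971 bases and the 38 others with a length 1477 bases, against 3233 bases for all genes. Within the class of 501 to 750 bases the 21 nuclear members had a median of -0.26 and 14 of them were lower, against 24.9% of all genes in that class, and in the class of 1001 to 1500 bases 11 members had a median of -0.24 with 7 lower, against 24.1%. Across the 77 members with a length, Spearman's rho between length and log2 fold change was 0.34 and Pearson's r with log10 length 0.33, as a description over genes that share the same 6 libraries. When a curve for transcript length was taken out of each sample, an alternative chosen after seeing the data, 16 of 77 nuclear members were lower and 4 (Ndufa8, Ndufb1, Uqcr10 and Uqcrc2) higher, and 4 of 13 mitochondrial members were lower. Among all genes 19.4% were then lower and 19.2% higher, so the count of lower nuclear members lay near the background, and the median log2 fold change was -0.075 for nuclear and -0.048 for mitochondrial members. The part of length in the result, beyond these values, was not tested.

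**Figure D3:**
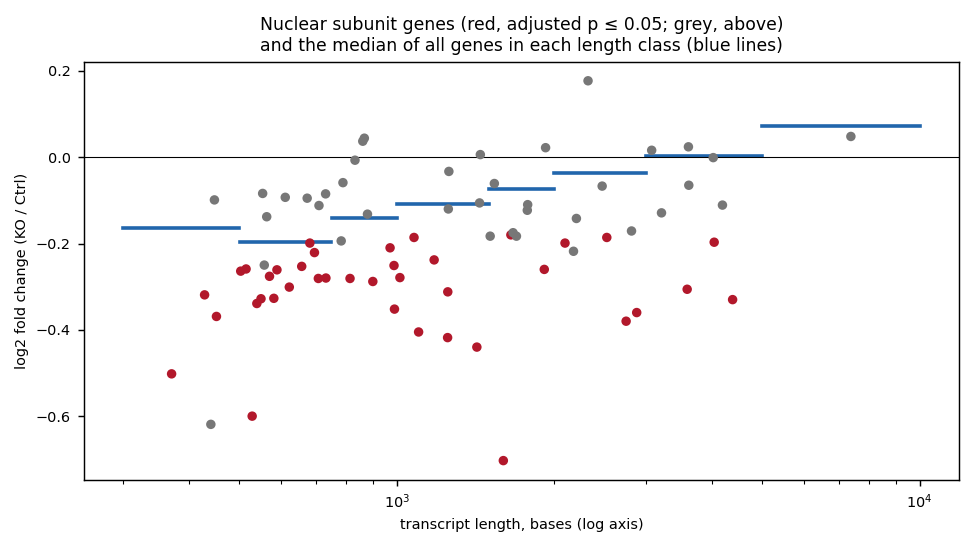
Log2 fold change of each nuclear member with a known length (points; red, adjusted p of 0.05 or less; grey, above) against the length of its transcript (log axis), with the median of all tested genes in each length class as blue lines. The blue line is at -0.165 up to 500 bases. From -0.20 at 501 to 750 bases the lines climb to 0.073 above 5000 bases. Most red points lie below the line of their class.

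Summed over the members, the nuclear subunit transcripts were lower in every Nfkbiz KO sample than in any Ctrl sample. In CPM, the 78 nuclear members together had 8309, 7940 and 9275 in the Ctrl samples and 7682, 7758 and 7744 in the Nfkbiz KO samples. The groups were apart, and the mean of 7728 ± 40.9 (SD, n = 3) was 0.908 times the Ctrl mean of 8508 ± 689 (SD, n = 3). On the TPM scale the sums were 15820, 15900 and 17400 in Ctrl and 15520, 15570 and 15380 in the knockout samples. The means had a ratio of 0.946. The ratio of means in CPM was lowest in complex IV (0.838) and nearer to 1 in complex I (0.895), complex III (0.913), complex V (0.934) and complex II (0.984). The sums of complexes I, III and IV did not overlap between groups, and those of complexes II and V did. A sum over the members has no test here. In bulk RNA, fewer transcripts per cell and a change in the mix of cells cannot be told apart.

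The 13 mitochondrial members took 21990, 24590 and 27030 CPM in Ctrl and 20660, 21790 and 22560 CPM in Nfkbiz KO samples. Here the groups overlapped, since Ctrl replicate 1 lay below Nfkbiz KO replicate 3. The number of mitochondrial reads per nuclear member read was 2.65, 3.10 and 2.92 in Ctrl and 2.69, 2.81 and 2.91 in Nfkbiz KO, means of 2.89 ± 0.227 and 2.80 ± 0.112 (SD, n = 3). The balance of the genomes thus differed by less than the spread between samples.

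**Figure D4:**
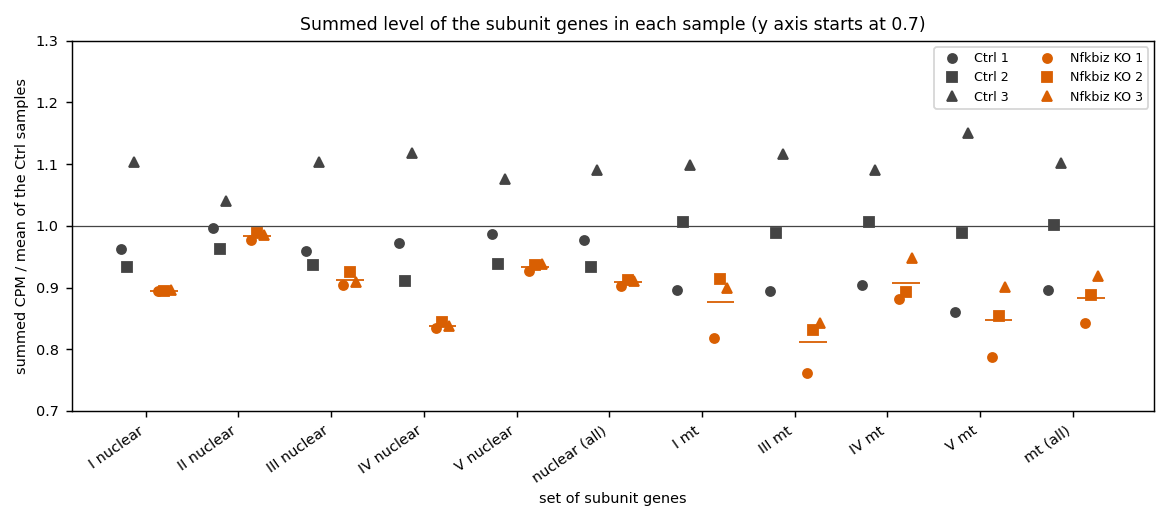
Summed CPM of the subunit genes in each sample, divided by the mean of the 3 Ctrl samples, for each complex and genome and for all members of a genome; symbols are replicates, grey Ctrl and orange Nfkbiz KO, the orange line is the Nfkbiz KO mean, and the y axis starts at 0.7. Nfkbiz KO samples lie close together in the nuclear sets and Ctrl replicate 3 stands highest in every set, with complex IV nuclear genes at 0.838 and complex II at 0.984 of the Ctrl mean.

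Complex I had 19 of its 36 nuclear members lower. By family, 7 of 12 Ndufa, 6 of 11 Ndufb, 2 of 2 Ndufc, 3 of 8 Ndufs and 1 of 3 Ndufv genes were lower. The strongest change among all members was in Ndufv3, which encodes an accessory subunit of the arm that oxidises NADH. It was at 29.9, 33.1 and 33.7 TPM in the Ctrl samples and at 22.8, 20.5 and 20.4 TPM in the Nfkbiz KO samples, so the groups were apart. Its log2 fold change was -0.70 (SE 0.078, adjusted p = 1.8e-05), a fitted drop of 38.6% between the groups. The log2 fold change stayed at -0.63 with the length curve taken out. The other Ndufv genes, Ndufv1 and Ndufv2, which encode the core of the same arm, had log2 fold changes of -0.18 and -0.12 and did not pass. Among the smallest called changes of the complex, Ndufs4 (-0.20, adjusted p = 0.040), Ndufb8 (-0.20, adjusted p = 0.037) and Ndufb5 (-0.19, adjusted p = 0.024) were alike in size, and each lost its call in at least 1 reduced set. Ndufa2, the most abundant of the complex, fell by 0.33 on the log2 scale (SE 0.096, adjusted p = 0.018), and Ndufb2, the least abundant, by 0.33 (SE 0.073, adjusted p = 0.0037). Ndufb4 reads were shared with other loci to a large degree, with 55.3% of them unique, so its value is uncertain.

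Complex II had no call among its 4 genes. Sdha, the flavoprotein that oxidises succinate, was at 152.6, 155.5 and 144.5 TPM in Ctrl and 165.7, 162.4 and 160.5 TPM in Nfkbiz KO, with a log2 fold change by read counts of 0.02 (SE 0.049, adjusted p = 0.83). For the iron-sulfur subunit Sdhb the value was 0.00 (SE 0.066), and for the membrane anchors Sdhd and Sdhc it was -0.03 (SE 0.059) and -0.13 (SE 0.055, adjusted p = 0.086). Sdhc alone had groups that did not overlap in CPM, as 24.5% of all genes tested had in the lower direction. At an unadjusted p under 0.05, 1 of the 4 was lower and 0 were higher, and DESeq2 called 0. Sdhc was called lower with the curve for length taken out (-0.13, adjusted p = 0.044) and with one for GC content taken out (-0.16, adjusted p = 0.029).

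Complex III had 3 of 8 nuclear members lower. Uqcrh, the acidic hinge protein at the docking site of cytochrome c, was at 193.9, 221.4 and 235.2 TPM in Ctrl and 171.1, 165.1 and 170.2 TPM in Nfkbiz KO. It fell by 0.44 on the log2 scale (SE 0.076, adjusted p = 0.00069), and the groups were apart. Uqcrc1, a core protein, gave the smallest called change of all members at -0.18 (SE 0.066, adjusted p = 0.049), with groups that overlapped. Its call was lost by limma on TPM (adjusted p = 0.33) and with the length curve taken out (adjusted p = 0.11). Its partner Uqcrc2, chosen after its values were seen, had a positive value, at 147.7, 162.3 and 162.6 TPM in Ctrl and 181.6, 190.3 and 200.6 TPM in Nfkbiz KO. By read counts its log2 fold change was 0.18 (SE 0.065, adjusted p = 0.051), just outside the threshold, and its adjusted p was 0.031 by DESeq2 and 0.018 by limma on TPM. Of its reads, 93% were unique. Uqcr10 was at -0.10 (SE 0.075, adjusted p = 0.33), and its direction turned with the length curve taken out (0.15, adjusted p = 0.036).

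By read counts without the length curve taken out, complex IV had the largest share of lower genes, 9 of 13. All 13 had a negative log2 fold change. Ndufa4, named for complex I but counted here as the complex IV subunit it is now known to be, was at 127.8, 132.2 and 133.3 TPM in Ctrl and 89.9, 92.6 and 90.1 TPM in Nfkbiz KO. The groups lay far apart compared with their spread, and the fall was 0.60 on the log2 scale (SE 0.060, adjusted p = 7.3e-06). Cox7a2l was at 265.2, 266 and 309.4 TPM in Ctrl and 230.1, 217 and 220.4 TPM in Nfkbiz KO, with a log2 fold change of -0.42 (SE 0.079, adjusted p = 0.0012). Its relative Cox7a2 was at -0.28 (SE 0.086, adjusted p = 0.022), and the muscle form Cox7a1 at -0.62 with an SE of 0.341 (adjusted p = 0.18), the widest of any member. Cox6a1 (-0.28, adjusted p = 0.018) and Cox6b1 (-0.25, adjusted p = 0.018) also passed. The most abundant member did not: Cox8a, at 1228, 1201 and 1337 TPM in Ctrl and 1193, 1245 and 1222 TPM in Nfkbiz KO, had a log2 fold change of -0.14 (SE 0.070, adjusted p = 0.15). Cox4i1 did not pass either, at -0.19 (SE 0.081, adjusted p = 0.080). With the length curve taken out, only Ndufa4 (-0.37, adjusted p = 6.9e-05) and Cox7a2l (-0.295, adjusted p = 0.00059) stayed lower. The other calls of the complex were lost, among them Cox7a2 (adjusted p = 0.15), Cox6a1 (0.44) and Cox6b1 (0.42), and Cox8a turned to 0.084. Complex IV then no longer had the largest share of lower genes.

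Complex V had 8 of 17 nuclear members lower, all of them subunits of the membrane part or the stalks. Atp5k, which encodes the e subunit at the interface of ATP synthase dimers, was at 214.3, 248.9 and 281.9 TPM in Ctrl and 173.9, 187.2 and 202.5 TPM in Nfkbiz KO, and fell by 0.50 on the log2 scale (SE 0.103, adjusted p = 0.0023). Its change was -0.23 with the length curve taken out, and its canonical transcript is 371 bases long. Atp5j2, the f subunit gene of the same membrane part, was at 90.9, 92.2 and 103.6 TPM in Ctrl and 75.3, 77.8 and 78.1 TPM in Nfkbiz KO (log2 fold change -0.41, SE 0.074, adjusted p = 0.0010). Atp5pb, of the peripheral stalk, was lower by 0.19 (SE 0.062, adjusted p = 0.032). The gene of the catalytic subunit was not called by read counts. Atp5b, at 911.7, 925.9 and 905.9 TPM in Ctrl and 985.1, 998 and 994.8 TPM in Nfkbiz KO, had a log2 fold change of 0.02 by read counts (SE 0.057, adjusted p = 0.80), and 0.12 by limma on log2(TPM + 1) (adjusted p = 0.023). Of the c subunit genes, which give the same mature protein, Atp5g3 was lower (-0.25, SE 0.074, adjusted p = 0.018), and Atp5g1 (-0.09) and Atp5g2 (-0.09) did not pass. Reads of Atp5o_2 were 72.9% unique, and its value of -0.02 is uncertain.

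Of the 13 mitochondrial members, 6 were lower. The 4 whose groups were apart were mt-Nd3, mt-Nd1, mt-Nd2 and mt-Cytb. The complex I subunit gene mt-Nd3 had 237.4, 261 and 311 CPM in Ctrl and 186.5, 176.8 and 216.5 CPM in Nfkbiz KO (log2 fold change -0.48, SE 0.095, adjusted p = 0.0018). Its fellow mt-Nd1 was at 1535, 1609 and 1794 CPM in Ctrl and 1232, 1279 and 1283 CPM in Nfkbiz KO (-0.38, SE 0.067, adjusted p = 0.00079). These 2 were the mitochondrial genes that stayed lower in every reduced set and every alternative run. For mt-Nd2 the log2 fold change was -0.37 (SE 0.090, adjusted p = 0.0070), and for mt-Cytb, the only complex III subunit of the mitochondrial genome, -0.30 (SE 0.080, adjusted p = 0.011). The complex IV genes mt-Co2 (-0.29, adjusted p = 0.040) and mt-Co3 (-0.23, adjusted p = 0.040) passed with overlapping groups. The call of mt-Co2 was lost by DESeq2 (adjusted p = 0.16), and those of mt-Co2 and mt-Co3 by limma on TPM (adjusted p = 0.32 for each) and with the length curve taken out (adjusted p = 0.32 and 0.49). For mt-Co1, the catalytic subunit gene, the log2 fold change was -0.05 (SE 0.067, adjusted p = 0.57). The ATP synthase genes mt-Atp6 (-0.25, SE 0.101, adjusted p = 0.073) and mt-Atp8 (-0.16, SE 0.078, adjusted p = 0.13) did not pass. The call changed for mt-Atp6 with a curve for GC content taken out (adjusted p = 0.046), and mt-Atp8 without Ctrl replicate 3 (-0.22, adjusted p = 0.018). The late complex I genes mt-Nd4 (-0.12, adjusted p = 0.20), mt-Nd4l (-0.02, adjusted p = 0.89) and mt-Nd5 (0.07, adjusted p = 0.49) were not called either. That these genes differ from mt-Nd1 or mt-Nd3 in their change was not tested.

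**Figure D5:**
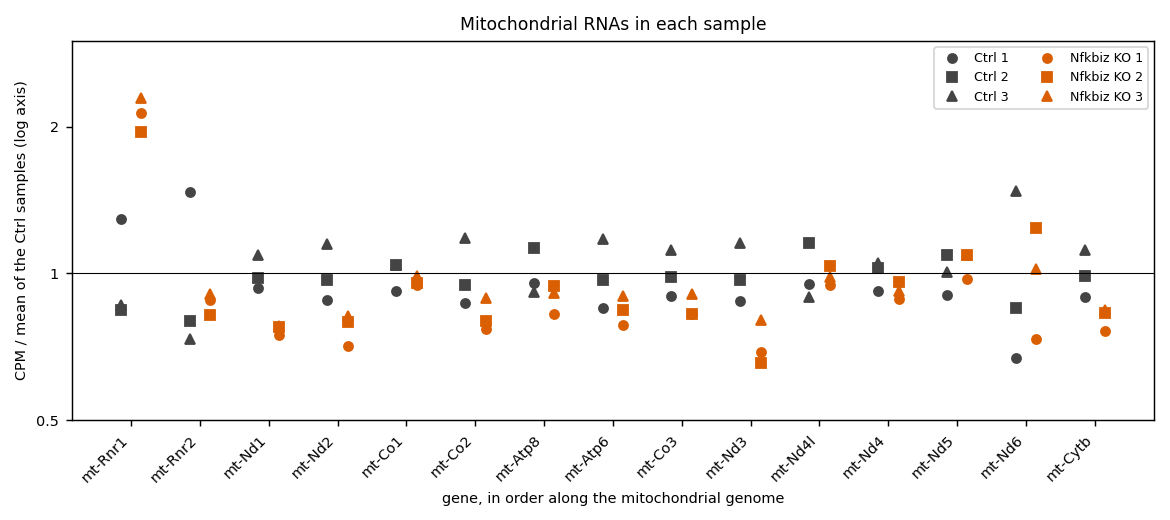
Level of each mitochondrial mRNA and rRNA in each sample in CPM, divided by the mean of the 3 Ctrl samples (log axis), in order along the mitochondrial genome; grey symbols are Ctrl and orange Nfkbiz KO replicates. The Nfkbiz KO samples lie below all Ctrl samples for mt-Nd1, mt-Nd2, mt-Nd3 and mt-Cytb and above them for mt-Rnr1, and mt-Nd6 is spread widely in both groups.

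The light strand has a single protein-coding gene, mt-Nd6, and it varied more between samples than the others. Its level was 292.2, 370.3 and 642.9 CPM in Ctrl and 319.5, 539.4 and 444.4 CPM in Nfkbiz KO, with a log2 fold change of 0.00 (SE 0.236), the largest standard error of the mitochondrial members. Without Ctrl replicate 3 it was 0.39 (adjusted p = 0.060). Reads were counted without regard to strand, so those of mt-Nd6 cannot be told from transcripts of the opposite strand. The genes also overlap, which is shown here because it sets what a read can be counted for. On the plus strand of build GRCm39, the last bases of mt-Atp8 are the first of mt-Atp6 over 43 bases (chrM:7927-7969), and those of mt-Nd5 meet the last of mt-Nd6, read from the other strand, over 14 bases (chrM:13552-13565), with the shared bases in capitals and 10 bases on either side.
mt-Atp8 and mt-Atp6, chrM:7917-7979: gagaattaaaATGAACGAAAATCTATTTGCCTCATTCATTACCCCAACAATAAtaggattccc
mt-Nd5 and mt-Nd6, chrM:13542-13575: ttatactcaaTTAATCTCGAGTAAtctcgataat
Both genes of the first pair lie within 1 transcript, and mt-Nd4l and mt-Nd4 likewise share 7 bases. In read counts mt-Atp8 had 258.7 to 353.4 CPM, close to the 255.5 to 329.4 CPM of mt-Nd4l. In TPM it had 157.6 to 229.7 and mt-Nd4l 870.4 to 1289, although mt-Atp8 is the shorter gene, at 204 against 297 bases. The cause of this gap was not tested, and the level of mt-Atp8 is uncertain.

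The ribosomal RNAs of the same genome are not members. mt-Rnr1, the small ribosomal RNA, was at 480.8, 313.5 and 320.9 CPM in Ctrl and 791.6, 723.5 and 850.5 CPM in Nfkbiz KO, higher by 1.09 on the log2 scale (SE 0.134, adjusted p = 4.7e-05) with the groups apart. The large one, mt-Rnr2, was at 696.6, 378.2 and 348.4 CPM in Ctrl and 417.8, 390.6 and 429.6 CPM in Nfkbiz KO (-0.20, SE 0.192, adjusted p = 0.46), with Ctrl replicate 1 above the rest. How the libraries selected RNA is not given in the sources used here, and what share of these rRNAs they capture is unknown. The 22 mitochondrial tRNAs were listed at 0 reads in every sample.

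Other mitochondrial gene lists are given beside the subunits by the same counts, where 18.4% of all genes tested were lower and 18.2% higher. Assembly factors, which build the complexes and are not part of them, had 12 of 53 lower (22.6%) and 5 higher (9.43%) with a median of -0.07. Among them, Sdhaf4 of complex II fell by 0.59 (SE 0.114, adjusted p = 0.0015) and Cox15, needed for the heme of complex IV, rose by 0.43 (SE 0.065, adjusted p = 0.00024). The electron carriers and coenzyme Q enzymes had 3 of 13 lower (23.1%) and 0 higher, with a median of 0.02. This list also held Cyc1 (0.02, adjusted p = 0.81), a subunit of complex III, and Ndufab1 (0.003, adjusted p = 0.97), a subunit of complex I. The rule on names does not match either, so the members are not the whole of these complexes. At an unadjusted p under 0.05, 4 genes of the electron carrier list were higher, and DESeq2 called 1 higher. The lower shares of assembly factors and electron carriers lay near that of all genes tested. Cytochrome c (Cycs) was at 0.22 (SE 0.088, adjusted p = 0.076). Of 13 citrate cycle enzymes, 1 was lower (Suclg1) and 2 higher (Idh3a and Suclg2), with a median of 0.00. Of 12 general markers of mitochondrial content, 0 were lower (also 0 at an unadjusted p under 0.05 and by DESeq2) and 2 were higher, the matrix chaperones Hspd1 (0.24, adjusted p = 0.0049) and Hspa9 (0.21, adjusted p = 0.0099), and the outer membrane channel Vdac1 was at -0.07 (SE 0.058). The 78 mitochondrial ribosomal protein genes, also encoded in the nucleus, had 9 lower and 10 higher with a median of -0.04. The cytosolic ribosomal protein genes had 72 of 78 lower and 0 higher (also 0 at an unadjusted p under 0.05 and by DESeq2) with a median of -0.29, and the groups were apart in 72. Without Nfkbiz KO replicate 1 or 2 that count was 41 and 43, and by limma on log2(TPM + 1) it was 26.

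Regulators of the subunit genes were partly higher. Of 9 biogenesis regulators, 3 were higher (33.3%) and 1 lower (11.1%), against 18.2% and 18.4% of all genes tested. The higher ones were the whole family of PGC-1 coactivators, which drive respiratory gene transcription: Ppargc1a counted 26, 16 and 23 reads in the control libraries against 60, 44 and 60 in the knockout libraries (log2 fold change 1.31, SE 0.308, adjusted p = 0.0053), Ppargc1b rose by 0.85 (SE 0.158, adjusted p = 0.0011), and Pprc1 by 0.35 (SE 0.057, adjusted p = 0.00044). Ppargc1a stayed under 1 TPM in all samples. The lower one was Gabpb1, a partner subunit of the ETS factor GABPA (-0.22, SE 0.057, adjusted p = 0.010). Gabpa (0.15, adjusted p = 0.080), Nrf1 (-0.12, adjusted p = 0.14) and Yy1 (-0.03, adjusted p = 0.69) did not pass. Of 18 genes for the upkeep and transcription of mitochondrial DNA, 4 were higher (22.2%) and 1 lower (5.56%). The share of higher genes lay near the 18.2% of all genes tested. The packaging factor and transcription activator Tfam was at 29.9, 33.1 and 32.7 TPM in Ctrl and 39.2, 39.0 and 39.2 TPM in Nfkbiz KO (0.18, SE 0.061, adjusted p = 0.036), and Lrpprc, which stabilises mitochondrial mRNAs, was higher by 0.25 (SE 0.049, adjusted p = 0.0017), along with Tefm and Mgme1. Mterf2 was lower (-0.37, adjusted p = 0.015).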

How the data were processed

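RNA of D4M-3A cells was sequenced in 3 Ctrl and 3 Nfkbiz KO samples from independent experiments. Per the labels and the study's methods, the authors mapped paired reads with CLC Genomics Workbench, without regard to strand, with a read allowed up to 10 places. The methods name build GRCm39 and the submitters' processing notes GRCm38, which was not settled. The authors deposited, for each gene, total and unique gene reads as raw counts, and TPM and RPKM values with decimal commas, which were converted. TPM was used as deposited, RPKM not at all.

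Total gene reads were normalized by TMM and tested with edgeR 4.0.16 (R 4.3.3; filterByExpr with a minimum count of 10; quasi-likelihood test, two-sided, with Benjamini-Hochberg adjustment over 14419 genes). The SE is the log2 fold change divided by the square root of F. Overlap of groups was read on TMM-scaled CPM. Transcript lengths are of the Ensembl canonical transcript in GENCODE on GRCm39, matched for 96.3% of tested genes, with renamed Atp5 genes matched by hand and checked by chromosome. The fit was tested on simulated data. Alternatives were DESeq2 1.42.0, RLE factors, other filters, unique reads, limma 3.58.1 on log2(TPM + 1) and log2(TPM + 0.1), mitochondrial reads left out, a replicate block, and each sample left out. Offsets for transcript length and GC content (loess, span 0.3) were added after seeing the data. Within groups, counts of any pair differed by more than counting noise (chi-square over its degrees of freedom between 3.53 and 72.6), so no sample was a duplicate. Between 96.5% and 96.9% of reads were unique. p-values measure the spread between these samples, which may be partly technical.

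Genes named are all mitochondrial and Sdh members, the 6 nuclear members with the lowest and the 6 with the highest log2 fold change among those called, the most and least abundant nuclear member of each complex, named paralogues, and Nfkbiz; 1 of them is not reported here. Other named genes were chosen after their values were seen. The members and the gene lists (assembly factors, electron carriers, citrate cycle, mitochondrial content, mitochondrial DNA, biogenesis regulators, both kinds of ribosomal proteins, mitochondrial rRNA and tRNA, cell type markers) were chosen with earlier results of these data known.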

Additional observations from a re-analysis of the deposited data

How the results depend on the processing

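The count of lower nuclear members (39 by edgeR on read counts) stayed within 1.5 times under DESeq2, RLE factors, mitochondrial reads left out, both other filters, unique reads, the replicate block and the GC offset. It was 13 by limma on log2(TPM + 1), 12 by limma on log2(TPM + 0.1) and 16 with the length offset, and 14 to 43 with 1 sample left out. The count of higher nuclear members (0) was 1 by DESeq2, with RLE factors, without a filter, with at least 10 reads in every sample, with unique reads and with the replicate block, 2 by limma on log2(TPM + 1) and on log2(TPM + 0.1), 4 with the length offset, and 0 to 2 with 1 sample left out. The count of lower mitochondrial members (6) was 2 by limma on log2(TPM + 1) and 2 on log2(TPM + 0.1), and 2 to 7 with 1 sample left out. The log2 ratio of summed CPM was -0.14 for nuclear members (-0.18 to -0.07 with 1 sample left out) and -0.18 for mitochondrial members (-0.25 to -0.10), with -0.08 and -0.12 by sums of TPM. A fit on total exon reads was not run.

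With the replicate number as a block, 38 nuclear members were lower and 1 higher, and 7 mitochondrial members lower. Among the members, the block ended the calls of Uqcrc1 (adjusted p = 0.058) and Ndufb4 (0.061) and added those of Uqcrc2 (0.029, higher), Uqcrb (0.033, lower) and mt-Atp6 (0.016, lower). Samples with the same number did not deviate together, with correlations of 0.051, -0.014 and 0.031. Whether equal numbers mark the same experiment cannot be told from these values, since each group mean rests on 3 samples.

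By limma on log2(TPM + 1), 1327 of all 14419 genes tested (9.2%) were lower and 3004 higher. On that scale the electron carriers had 1 lower and 3 higher, the mitochondrial DNA genes 0 lower and the biogenesis regulators 0 lower. The citrate cycle enzymes had 0 lower and 4 higher, and the mitochondrial content markers 6 higher. Of the 78 mitochondrial ribosomal proteins, 3 were lower and 17 higher, and of the cytosolic ones 26 were lower. Of the 53 assembly factors, 4 were lower and 13 higher. With 1 sample left out, the ranges were 1 to 3 lower and 0 to 1 higher for electron carriers, 0 to 2 lower and 2 to 4 higher for mitochondrial DNA genes, 0 to 1 lower for biogenesis regulators, 0 to 2 lower and 0 to 2 higher for citrate cycle enzymes, 1 to 3 higher for content markers, 5 to 14 lower and 5 to 12 higher for mitochondrial ribosomal proteins, 41 to 73 lower for cytosolic ribosomal proteins, and 7 to 13 lower and 4 to 9 higher for assembly factors.

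Among the 43 genes named by rule, 441 of the values under an alternative kept direction and call, 75 lost the call, 11 gained it and 32 turned direction, and none of the turned values belonged to a gene called by read counts. By limma on log2(TPM + 1), log2 fold changes turned to 0.062 for mt-Co1, 0.014 for mt-Nd4l, 0.164 for mt-Nd6, 0.097 for Sdhb, 0.059 for Sdhd, 0.008 for Uqcr10, 0.013 for Atp5g1 and 0.006 for Atp5g2. With the length offset they turned to 0.026 for mt-Co1, 0.162 for mt-Atp8, 0.261 for mt-Nd4l, 0.254 for mt-Nd6, 0.086 for Sdhd, 0.152 for Uqcr10, 0.084 for Cox8a, 0.120 for Atp5g1 and 0.101 for Atp5g2. By DESeq2 mt-Nd6 was at 0.006 and Sdhb at 0.007, with the replicate block at 0.046 and 0.003, and with the GC offset Sdhb was at 0.003 and Sdha at -0.021. With 1 sample left out, mt-Nd4l ranged from -0.092 to 0.106, mt-Nd6 from -0.222 to 0.391, Sdhb from -0.061 to 0.06 and Sdhd from -0.064 to 0.025. The causes were not tested. What limits the calls was not tested, and no member with a log2 fold change nearer to 0 than -0.18 was called.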
